A study of Mus musculus with 14 samples.

Results

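The serum amyloid A genes (Saa1, Saa2, Saa3, Saa4), the orosomucoid genes (Orm1, Orm2, Orm3), lipocalin 2 (Lcn2), haptoglobin (Hp) and hemopexin (Hpx) form a set of 10 acute phase genes, taken by gene symbol from a table of 57180 genes. All 10 had enough counts to enter the test, among 16201 genes tested in all. They were measured by RNA sequencing in whole liver of 14 littermate mice fed normal chow. The labels class 6 livers as WT, 4 as Het and 4 as Homo for Pkd1, which encodes polycystin 1, and every label, WT included, carries the word Cre. Neither the kind of Pkd1 allele nor the promoter of the Cre is named in the sources used here, so the cell type with altered Pkd1 cannot be stated. The comparisons ask how each genotype differed from the others, and the libraries are named below by genotype and replicate number.

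The acute phase response is the change in plasma proteins that the liver makes during inflammation or injury. Interleukin 6 acts on hepatocytes through the receptor chains encoded by Il6ra and Il6st and the transcription factor STAT3, and interleukin 1 and tumour necrosis factor act through NF-kB, while the C/EBP factors bind many acute phase promoters. SAA1 and SAA2 are the inducible serum amyloids carried on high-density lipoprotein, SAA4 is made constitutively, and orosomucoids, haptoglobin, hemopexin and lipocalin 2 bind drugs, haemoglobin, haem and iron-laden siderophores respectively.

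Promoter sequence is shown for 5 members because they form near-identical copies, some of which moved together between livers (Saa1, Saa2, Orm2), and their relatives that followed them less closely (Saa4, Orm3). Orm3 had only 6 to 61 counts per library, so how closely it followed is uncertain. The sequences came from RefSeq on the build GRCm38.p6, in which 8 of the 10 members matched, and each covers the 250 bases before the annotated start. Capitals mark matches to TTGCNNAA on either strand, the letters of a C/EBP motif, where N is any base. The places are chr7:46742981-46743230 for Saa1 (minus strand), chr7:46751583-46751832 for Saa2 (plus strand), chr7:46732604-46732853 for Saa4 (minus strand), chr4:63362199-63362448 for Orm2 (plus strand) and chr4:63355908-63356157 for Orm3 (plus strand).
Saa1: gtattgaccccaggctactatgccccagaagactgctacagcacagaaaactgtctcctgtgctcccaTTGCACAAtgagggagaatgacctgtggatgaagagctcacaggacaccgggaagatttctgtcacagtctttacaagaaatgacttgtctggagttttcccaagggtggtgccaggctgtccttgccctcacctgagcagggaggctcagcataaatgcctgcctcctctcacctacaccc
Saa2: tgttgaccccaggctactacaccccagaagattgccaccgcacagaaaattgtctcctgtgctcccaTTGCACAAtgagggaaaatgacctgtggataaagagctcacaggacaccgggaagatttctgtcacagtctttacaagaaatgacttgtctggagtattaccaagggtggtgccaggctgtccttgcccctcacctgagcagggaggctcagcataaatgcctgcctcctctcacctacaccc
Saa4: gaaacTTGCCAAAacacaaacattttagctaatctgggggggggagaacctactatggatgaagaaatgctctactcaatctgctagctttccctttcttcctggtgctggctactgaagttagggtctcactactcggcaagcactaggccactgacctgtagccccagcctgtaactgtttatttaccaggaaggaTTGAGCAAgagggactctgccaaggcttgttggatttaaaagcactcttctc
Orm2: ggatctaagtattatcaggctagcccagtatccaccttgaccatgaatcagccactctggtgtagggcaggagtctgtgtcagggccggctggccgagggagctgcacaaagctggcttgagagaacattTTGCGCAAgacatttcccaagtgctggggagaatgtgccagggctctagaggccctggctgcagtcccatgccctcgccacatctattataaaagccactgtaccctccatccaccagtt
Orm3: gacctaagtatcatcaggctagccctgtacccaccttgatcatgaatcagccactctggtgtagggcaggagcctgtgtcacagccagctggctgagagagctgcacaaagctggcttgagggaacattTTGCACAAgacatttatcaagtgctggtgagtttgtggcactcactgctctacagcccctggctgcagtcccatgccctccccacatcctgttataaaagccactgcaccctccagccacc

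The C/EBP letters were present in 8 of 8 member promoters and in 9.57% of 32841 promoters of the same length. Saa4 held 2 matches, and Saa3, Lcn2 and Hpx, not printed, held 1 each. A STAT motif, TTCNNNGAA on either strand, was in 0 of 8 against 7.02% of all promoters, and the NF-kB motif searched was in 0 of 8 against 7.25%. The letters were chosen with these promoters in view, and a match describes letters, not binding. The Saa1 and Saa2 promoters were 95.6% identical over their alignment, and their transcripts were 94.4% identical. The Orm2 and Orm3 promoters were 89.0% identical, and the Orm1 and Orm2 transcripts 91.0% identical. The division of reads among Saa1 and Saa2, and among Orm1, Orm2 and Orm3, is therefore uncertain.

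Total counts per library ran from 18573739 to 40925973. Pkd1 was measured at 34.8 ± 2.77 CPM in WT (SD, n = 6), 32.2 ± 3.52 in Het (n = 4) and 25.3 ± 1.51 in Homo (n = 4), so it was lowest in the genotype labelled Homo. CPM are counts scaled by the effective size of each library. Hepatocyte markers were present in every library, with summed levels of 52476 to 70477 CPM in WT, 50953 to 61517 in Het and 47096 to 78084 in Homo. Most of this sum was Alb, at a mean of 41050 CPM, which fell as Saa1 rose (r = -0.867). The sum is therefore not independent of the acute phase level. The 3 libraries with high acute phase transcripts, Het 2, WT 5 and Homo 3, belonged to 3 different genotypes. In bulk liver, more RNA per cell and more expressing cells cannot be told apart.

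Per kilobase of transcript, the members spanned over 3 orders of size. The median level over all livers was 1348 CPM per kilobase for Hpx, 1306 for Hp, 838 for Orm1, 416 for Saa1, 341 for Saa4 and 288 for Saa2. It was 15.5 for Lcn2, 14.1 for Orm2, 8.05 for Saa3 and 0.901 for Orm3. The ranges over livers overlapped between all neighbours in this order except Saa3 and Orm3, where the lowest Saa3 liver had 3.66 and the highest Orm3 liver 3.59. The lengths came from annotation of the build GRCm38, so these levels are approximate. The place of Saa4 below Saa1 rests on its annotated length of 2094 bases, against 609 for Saa1. Without division by length the WT median was 689 CPM for Saa4 and 203 for Saa1.

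No member differed between genotypes past the threshold in any of the 3 comparisons. With edgeR's quasi-likelihood test and Benjamini-Hochberg adjustment over 16201 genes, 0 of 10 members were called at an adjusted p under 0.05 in Homo against WT, where 0.222% of all genes were called. The count was 0 of 10 in Het against WT, against 0.0556% of all genes, and 0 of 10 in Homo against Het, against 0.0309%. At an unadjusted p under 0.05 edgeR gave 0, 0 and 2 of 10 members, beside 4.73%, 4.67% and 5.10% of all genes, and DESeq2 called 0 in each comparison, with no adjusted p given for Saa3. Every member's range in each genotype overlapped its range in each other genotype. Over all genes the groups did not overlap in only 1.15%, 1.20% and 2.94%, so this overlap does not set the 10 members apart. The differences of each member are given below by role, on the CPM scale.

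Saa1, an inducible apolipoprotein of high-density lipoprotein, varied widely within every genotype. In WT it was lowest at 33.0, had a median of 203 and was highest at 1027 CPM. The Het livers had 393, 2167, 140 and 291 CPM. The Homo livers had 65.1, 556, 1044 and 43.0 CPM. The high livers were WT 5, Het 2 and Homo 3, the low ones WT 4 and Homo 4, and the groups overlapped throughout. The fold was 1.34 in Homo over WT (95% interval 0.312 to 5.72) and 2.34 in Het over WT (0.551 to 9.93), and neither passed the test with edgeR (adjusted p = 0.998 in both). Without Het 2 the log2 difference of Het against WT was -0.22, against 1.23 with it.

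Saa2, the neighbouring inducible gene, followed nearly the same order of livers with a wider range. In WT the lowest, median and highest levels were 18.6, 133 and 1083 CPM. Levels in Het were 391, 2633, 64.9 and 242 CPM. Levels in Homo were 34.4, 535, 1134 and 22.5 CPM. The highest liver, Het 2, stood 141-fold above the lowest, WT 4, and for Saa1 the same 2 livers differed 65.7-fold. Saa2 in Het stood at 2.76 times its WT level (95% interval 0.475 to 16.0, edgeR adjusted p = 0.998), with a log2 difference of 1.46 that was -0.38 without Het 2. With the counts of Saa1 and Saa2 added together, the log2 difference was 0.47 ± 1.08 (SE) in Homo against WT, 1.35 ± 1.07 in Het against WT and -0.88 ± 1.20 in Homo against Het, none of them called. Saa2 made up from 31.7% (Het 3) to 54.9% (Het 2) of the sum.

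Saa3, a serum amyloid that macrophages and adipose tissue are also known to make, was low in most livers. In WT it was between 2.22 and 60.8 CPM with a median of 4.47. Het 1 to 4 stood at 3.67, 37.0, 3.66 and 4.87 CPM. Homo 1 to 4 stood at 4.79, 3.11, 14.1 and 2.03 CPM. Only WT 5, Het 2 and Homo 3 were above 10 CPM, and the other 11 livers lay between 2.03 and 5.02. Saa3 in Homo stood at 0.452 times its WT level (95% interval 0.101 to 2.02, edgeR adjusted p = 0.998), and the log2 difference of -1.15 became 0.62 without WT 5.

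Saa4, the constitutive serum amyloid, spanned 3.09-fold over all livers, beside 3.41-fold for Hp, 2.70-fold for Hpx and 2.64-fold for Orm1. In WT it was lowest at 490, had a median of 689 and was highest at 1514 CPM. The Het livers had 701, 1388, 1084 and 885 CPM, and the Homo livers 497, 594, 764 and 607. Saa4 was the only serum amyloid whose 4 Homo livers lay so close together, with an SD of 0.25 on the log2 scale against 1.18 to 2.82 for the other three. The log2 difference was -0.72 ± 0.299 (SE) in Homo against Het, a fold of 0.607 (95% interval 0.390 to 0.944) with an unadjusted p of 0.0294 and an adjusted p of 0.950 in edgeR. The summed Saa1 and Saa2 counts ranged from 0.0866 of the Saa4 counts in WT 4 to 3.46 times them in Het 2. This ratio of counts is not corrected for length, and the Saa4 transcript has 2094 bases against 609 for Saa1 and 652 for Saa2.

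**Figure D1:**
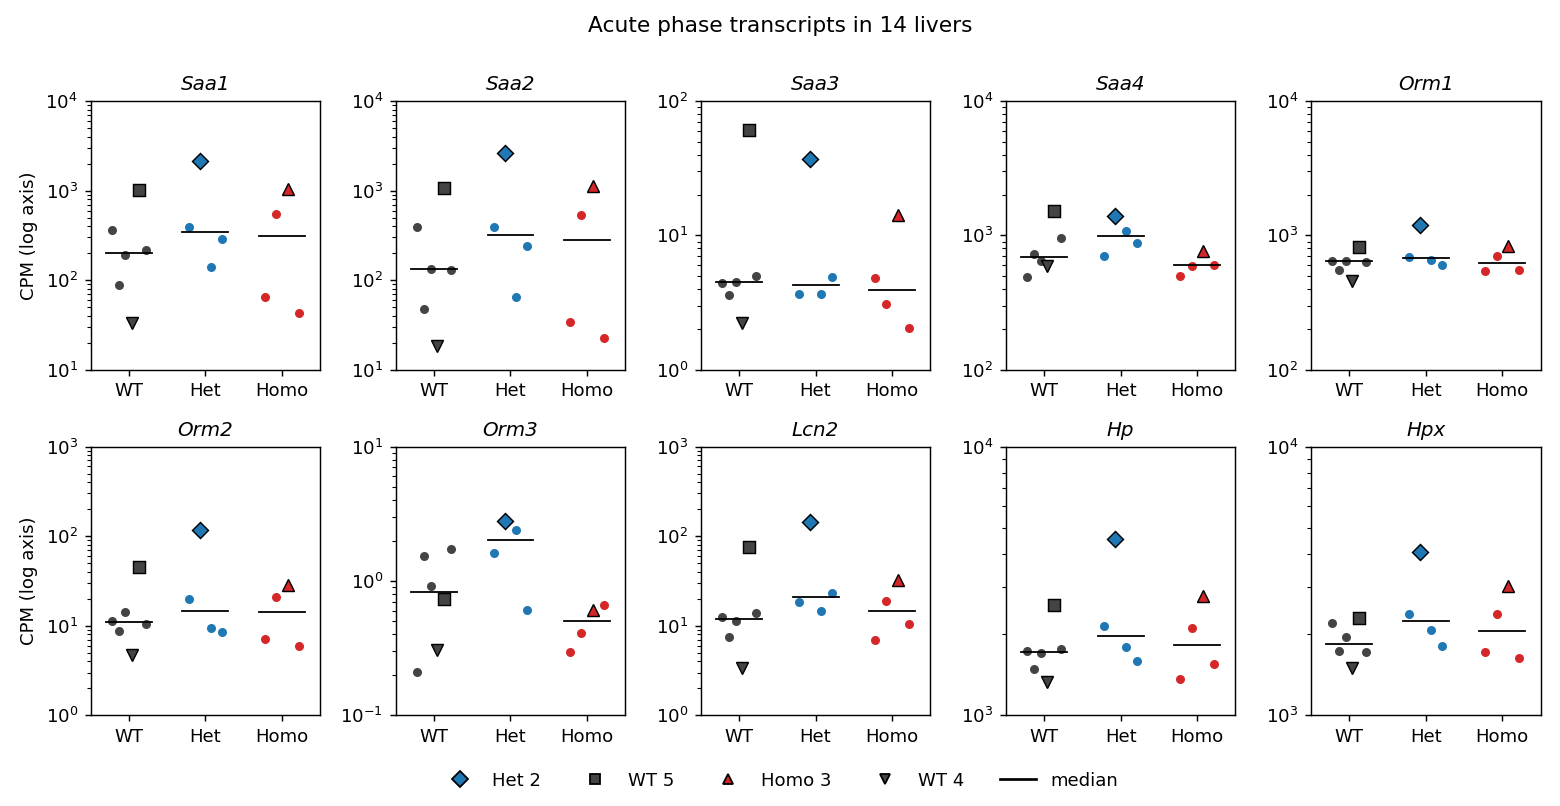
Level of each of the 10 acute phase genes in CPM (log axis) in every liver, by genotype, with the median of each group as a line and 4 livers marked by shape. Het 2, WT 5 and Homo 3 lie at or near the top of their groups in most panels, and the groups overlap in every panel. They are also the highest of their groups for Saa4, whose lowest liver is WT 1 and not WT 4. For Orm3 the highest WT and Homo livers are WT 6 and Homo 4.

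Orm1, the main orosomucoid of plasma, gave 91.0% to 98.9% of the orosomucoid counts in each liver. In WT it was between 455 and 815 CPM with a median of 642. Across Het the level was 690, 1200, 657 and 605 CPM, and the Homo livers 547, 698, 836 and 549. Het 2 was the only liver above the WT maximum apart from Homo 3. Relative to WT the fold was 1.05 in Homo (95% interval 0.784 to 1.41) and 1.26 in Het (0.941 to 1.68), with an edgeR adjusted p of 0.998 in both.

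Orm2, a minor orosomucoid in these livers, was more variable than Orm1. In WT its lowest, median and highest levels were 4.76, 10.9 and 45.7 CPM. Het livers were at 20.1, 116, 9.40 and 8.62 CPM, and the Homo livers 7.13, 21.1, 28.5 and 5.93. Orm2 made up 1.03% of orosomucoid counts in WT 4 and 8.82% in Het 2, the livers with the lowest and the highest Orm1. The log2 difference of Het against WT was 1.27 ± 0.742 (SE), uncalled, and -0.33 without Het 2.

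Orm3, the third orosomucoid gene, was close to the limit of detection, with 6 to 61 estimated counts per library. In WT it was between 0.209 and 1.72 CPM with a median of 0.829. The Het livers had 1.63, 2.77, 2.39 and 0.603 CPM, and the Homo livers 0.297, 0.409, 0.605 and 0.659. All 4 Homo livers were at or below 0.659 CPM and 3 of 4 Het livers were above 1.6, with Het 4 inside the Homo range. The log2 difference of Homo against Het was -1.92 ± 0.608 (SE), the smallest unadjusted p among the members' comparisons at 0.00655, with an adjusted p of 0.916 in edgeR and 0.582 in DESeq2.

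Lcn2 encodes lipocalin 2, which withholds iron from bacteria by binding their siderophores. In WT it was lowest at 3.34, had a median of 12.0 and was highest at 75.6 CPM. Lcn2 in Het was at 18.4, 143, 14.5 and 23.0 CPM, and the Homo livers 7.00, 19.0, 32.2 and 10.4. The order of the high livers was that of Orm2, Het 2 before WT 5 before Homo 3. Relative to WT, Lcn2 stood at 0.828 in Homo (95% interval 0.245 to 2.79) and 2.39 in Het (0.740 to 7.71), neither called by edgeR, and the log2 difference of 1.26 behind the latter was -0.15 without Het 2.

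Hp and Hpx, whose products bind free haemoglobin and free haem, were the most abundant members, with ranges of 3.41-fold and 2.70-fold over all livers. Hp in WT was between 1329 and 2578 CPM with a median of 1723, in the Het livers 2145, 4537, 1797 and 1595, and in the Homo livers 1366, 2108, 2785 and 1549. Hpx in WT was between 1498 and 2293 CPM with a median of 1843, in the Het livers 2389, 4050, 2087 and 1812, and in the Homo livers 1726, 2387, 3017 and 1637. Het 2 was the highest liver for both. Homo livers stood at 1.10 times WT for Hp (95% interval 0.729 to 1.67) and 1.15 times for Hpx (0.835 to 1.59). Het livers stood at 1.42 times WT for Hp (0.943 to 2.15) and 1.36 times for Hpx (0.986 to 1.87), and none of these was called by edgeR.

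Over the 10 members the median log2 difference was 0.03 in Homo against WT, with 5 above 0 and 5 below, where the median of all genes was 0.00. It was 0.77 in Het against WT, with 9 above 0, and -0.88 in Homo against Het, with 0 above 0. The last 2 comparisons share the Het libraries. Without Het 2 the differences of Het against WT for Saa1, Saa2, Orm2 and Lcn2 turned negative, and those of Homo against Het for Saa1, Saa2, Saa3, Orm1, Orm2, Hp and Hpx turned positive. The intervals were wide for the variable members: for Saa2 that of Homo over WT ran from 0.245 to 8.34.

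**Figure D2:**
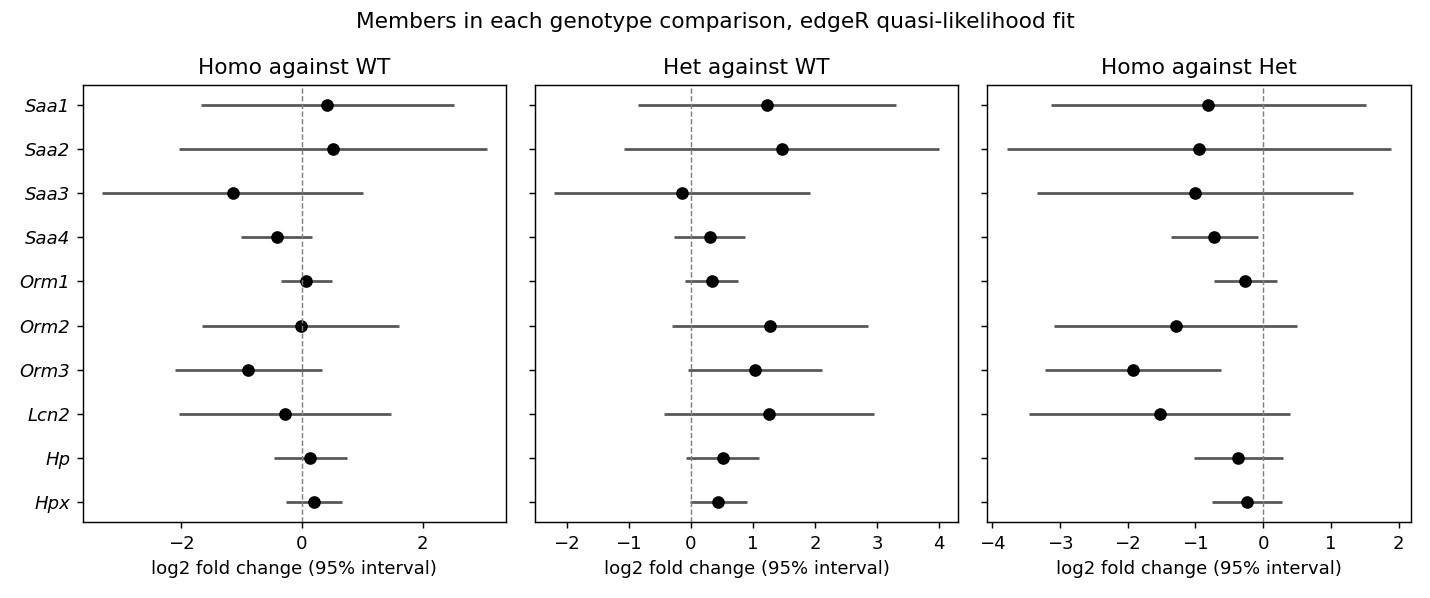
Log2 fold change of each member in the 3 genotype comparisons, 1 panel each, as points with 95% intervals from the edgeR fit over 14 livers. All intervals cross 0 except those of Saa4 and Orm3 in Homo against Het, whose adjusted p was 0.950 and 0.916.

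Livers of the same genotype differed widely in the inducible members. The SD of log2 CPM within genotype was 2.34 for Saa2, rank 64 of 16201 genes, and 1.86 for Saa1, rank 125, against a median of 0.24 over all genes. It was 1.53 for Saa3, 1.36 for Lcn2, 1.30 for Orm2 and 0.91 for Orm3. The 4 abundant members Hp, Saa4, Hpx and Orm1 had an SD of 0.48, 0.47, 0.38 and 0.34. Among the 7344 genes of at least 10 CPM, Saa2 ranked 20 and Saa1 ranked 28.

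Het 2 was among the 3 highest livers for 10 of 10 members, and WT 5 and Homo 3 for 8 each. At the other end, WT 4 was among the 3 lowest for 9 members, Homo 1 for 8 and Homo 4 for 6. Saa1 and Saa2 together took 0.462% of all counts in Het 2 and 0.00520% in WT 4. The 10 members together took 1.57% of counts in Het 2, a median of 0.552% and 0.396% in WT 4. Het 2 and WT 5 also differed from each other: Saa3 and Saa4 were higher in WT 5, at 60.8 against 37.0 and 1514 against 1388 CPM, while Saa1, Saa2, Orm2 and Hp were higher in Het 2.

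**Figure D3:**
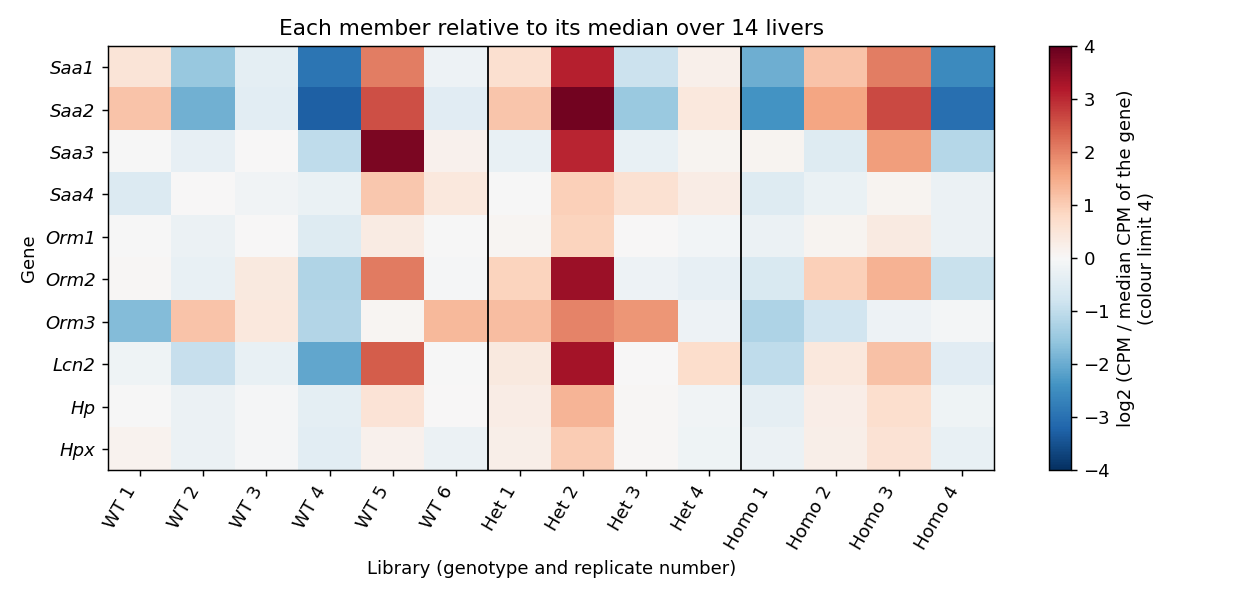
Log2 ratio of each member's CPM to its median over 14 livers, with genes as rows and livers as columns grouped by genotype (red above, blue below, colour limit 4). Het 2, WT 5 and Homo 3 are red and WT 4, Homo 1 and Homo 4 blue in most rows. The Saa4 row has these livers on the same sides but WT 1 lowest, and the Orm3 row shows another order.

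Most members varied together over the 14 livers. Of 45 pairs, all had a positive Pearson r of log2 CPM, 35 passed a permutation test after Benjamini-Hochberg adjustment over the 45 pairs, and 28 passed with Spearman's rho. After the 2 livers farthest from the median of the first gene were left out, 27 passed, and 33 passed after each genotype was centred on its mean. Within the 6 WT livers, 23 pairs passed in an exact permutation test, and no count of pairs is independent, since all rest on the same livers. With 100000 resamples the smallest p is 1e-05.

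Saa1 and Saa2 had an r of 0.995 and a rho of 0.991, both at that smallest p, and an r of 0.993 without WT 4 and Het 2. Reads of these near-copies may be divided between them, which was not tested. Orm1 and Hp, which are unrelated in sequence and lie on chromosomes 4 and 8, had an r of 0.979 and a rho of 0.974, both at a permutation p of 1e-05, and an r of 0.974 without WT 4 and Het 2. Saa1 and Hpx had an r of 0.892 and a rho of 0.912, at permutation p-values of 1e-05 and 5.0e-05, and an r of 0.844 without WT 4 and Het 2. Among the 8 members other than Saa4 and Orm3, a subset chosen after these values were seen, r lay between 0.686 and 0.995 over 28 pairs, and between 0.746 and 0.995 with genotypes centred. Without the 2 farthest livers r was as low as 0.625 and 26 of the 28 pairs passed, and Spearman's rho was as low as 0.473 with 25 of 28 passing.

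Pairs with Saa4 or Orm3 mostly had a lower r, and this difference from the other pairs was not tested. Orm3 had only 6 to 61 counts per library, and the part of counting noise in its low r was not tested. Pairs with Saa4 had an r of 0.46 to 0.76, of which 7 of 9 passed over all livers, 5 with genotypes centred and 1 without the 2 farthest livers. Pairs with Orm3 had an r of 0.20 to 0.68, of which 1 of 9 passed over all livers, 0 with genotypes centred and 1 without the 2 farthest. The Orm3 pair that passed was Saa4 with Orm3, at an r of 0.681 and a rho of 0.763 (permutation adjusted p 0.0117 and 0.0047), and an r of 0.801 without WT 5 and Het 2. Its r was 0.537 with genotypes centred and 0.507 within WT, where the exact permutation p was 0.297, and it did not pass in either. Saa1 with Orm3 had an r of 0.269 (permutation p = 0.349) and a rho of 0.226 (permutation p = 0.436), and -0.14 without WT 4 and Het 2.

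**Figure D4:**
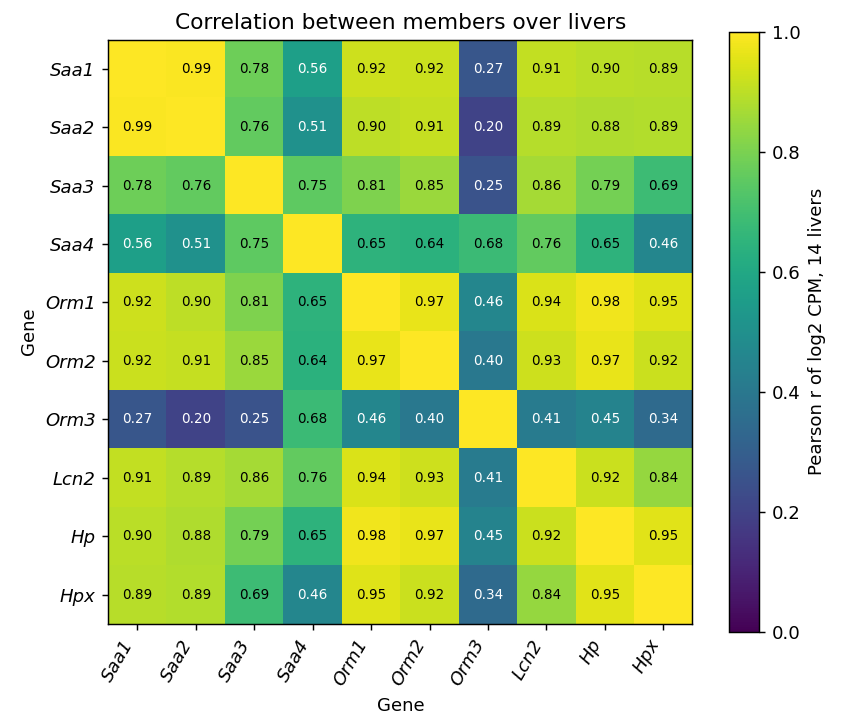
Pearson r of log2 CPM over 14 livers for each pair of members, as colour and number. The Saa4 and Orm3 rows are the low ones, from 0.20 to 0.76, and all other pairs are at 0.69 or above.

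To find which genes followed the gradient between livers at fixed genotype, each gene was fitted on log2 Saa1 with genotype as a term, a test added after the members' spread was seen. The slope is the log2 change per doubling of Saa1. With edgeR, 11 of 16200 genes rose with Saa1 (0.0679%) and 9 fell (0.0556%) at an adjusted p under 0.05. Of the 9 other members, 7 were among those that rose and 2, Saa4 and Orm3, were not called.

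The slope was 1.25 ± 0.0388 (SE) for Saa2 (adjusted p = 1.56e-10), above the slope of 1 that an equal change would give. It was 0.77 ± 0.128 for Saa3, 0.70 ± 0.0837 for Lcn2 and 0.67 ± 0.0738 for Orm2, with adjusted p-values of 0.0351, 0.00285 and 0.00132. The abundant members had shallow slopes, 0.23 ± 0.0326 for Hp, 0.18 ± 0.0257 for Hpx and 0.17 ± 0.0219 for Orm1 (adjusted p 0.00846, 0.00846 and 0.00546). These slopes mean that a 10-fold higher Saa1 went with 4.68-fold higher Orm2 and 1.47-fold higher Orm1. The slope was 0.14 ± 0.0541 for Saa4 (adjusted p = 0.450) and 0.05 ± 0.142 for Orm3 (adjusted p = 0.963).

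The 4 other genes that rose, named after their values were seen, were Lrg1, Qsox1, Slc41a2 and Tgm2. Lrg1, a leucine-rich glycoprotein of the acute phase, had a slope of 0.20 ± 0.0208 (adjusted p = 0.000803) and ran from 173 CPM in WT 4 to 517 in Het 2. Qsox1, a sulfhydryl oxidase, had 0.17 (adjusted p = 0.0285), Slc41a2, a magnesium transporter, 0.27, and Tgm2, a transglutaminase, 0.10 (both adjusted p 0.0483).

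The 9 that fell were likewise picked with their values in view. They were Hamp2, Inmt, Abca8a, Mme, Cyp2a4, Fmo2, Abcc3, Alb and Fmo4. Hamp2, a close copy of the hepcidin gene with which it may share reads, had a slope of -0.44 ± 0.0570 (adjusted p = 0.00531) and was at 4.96 CPM in Het 2 and 5.29 in Homo 3 against 45.7 in WT 2 and 35.5 in Homo 4. Inmt, an indole methyltransferase, had -0.26 ± 0.0353 (adjusted p = 0.00683). Alb, which encodes albumin, a protein known to fall in the acute phase, had -0.12 ± 0.0218 (adjusted p = 0.0483), with 33850 CPM in Het 2 and 56865 in Homo 4. The flavin monooxygenases Fmo2 and Fmo4 had -0.32 and -0.26. Cyp2a4, a cytochrome P450 with a near-identical copy, had -1.03 and was under 1 CPM in 10 of 14 livers.

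This count moved with single libraries: it was 12 without WT 2, 11 without WT 5, 11 without Het 2, 13 without Het 3 and 10 without Homo 4. Of the 20 genes, 9 were called in every fit that left out 1 library: Saa2, Orm1, Orm2, Lcn2, Hp, Hpx, Lrg1, Inmt and Hamp2. Without Het 2 and WT 4, the livers farthest from the median of Saa1, 5 were called: Saa2, Orm2, Lrg1, Hamp2 and Fmo4. All 20 kept their sign in these fits. Saa3 was called in 3 of 14 fits without 1 library.

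**Figure D5:**
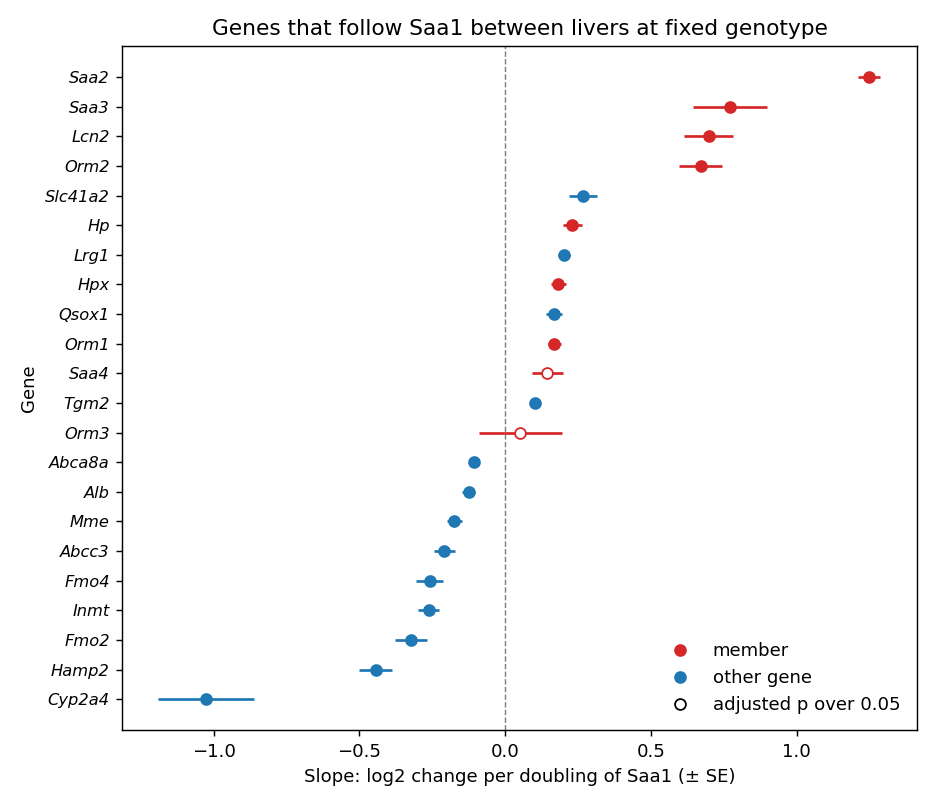
Slope of each gene on Saa1 (log2 change per doubling of Saa1, with SE bars) at fixed genotype over 14 livers, for the 20 genes past the threshold and the members Saa4 and Orm3 (open points). Saa2 has the steepest rise at 1.25 and Cyp2a4 the steepest fall at -1.03.

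The wider pathway was described with lists that hold no member. No gene of any of the 7 lists was called between genotypes. Among 32 other positive acute phase genes, 28 had a positive slope on Saa1 with a median of 0.09, beside 8180 of 16201 genes and a median of 0.00, and 1 of 32, Lrg1, was called. Among 14 negative acute phase genes, 3 had a positive slope with a median of -0.04, and 1 of 14, Alb, was called.

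In Homo against WT the positive acute phase genes with the smallest p were Vnn1, a pantetheinase, with a log2 difference of -0.79 ± 0.304 (SE, edgeR adjusted p = 0.994), Hamp, which encodes the iron hormone hepcidin, with -0.61 ± 0.286, and Il1rn, the interleukin 1 receptor antagonist, with -0.89 ± 0.521. Hamp had a slope of -0.17 on Saa1, which was not called (adjusted p = 0.349). The negative acute phase genes with the smallest p were Rbp4 at -0.12, Apoa4 at -0.39 and Ttr at -0.13, carriers of retinol, lipid and thyroid hormone. Of 14 genes of haem, haemoglobin and iron handling, 7 had a positive slope on Saa1 and 0 were called, with Hmox2 (a haem oxygenase), Fth1 (ferritin heavy chain) and Slc40a1 (the iron exporter ferroportin) at 0.14, -0.10 and 0.11 on the log2 scale in Homo against WT.

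The receptors varied to different degrees across livers. Il6st, the shared signalling chain, was between 209 and 276 CPM over all livers, and Il6ra, the interleukin 6 receptor, between 61.0 and 159. As a ratio of highest to lowest, the widest range among the 9 receptor genes was that of Il1r1, from 29.7 CPM in WT 1 to 142 in Het 2. Il1r1, an interleukin 1 receptor, was named after its values were seen. In CPM units Lifr spanned more, from 370 in WT 1 to 841 in WT 6. Of the 9 receptor genes 0 were called on the Saa1 slope. In Homo against WT the log2 difference was -0.18 for Tnfrsf1a, -0.08 for Il6st, -0.07 for Il1rap and -0.11 for Il6ra.

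Among signalling genes, Stat3 was highest in Het 2 (140 CPM) and WT 5 (131) and lowest in WT 1 (70.1), with Homo 3 at 77.5. Its slope on Saa1 was 0.06 ± 0.0360 (adjusted p = 0.686), and its log2 difference in Homo against WT was -0.33 ± 0.157 (edgeR adjusted p = 0.998). In that comparison Nfkb2 stood at -0.54 and Jak1 at -0.07. Cebpb and Cebpd, whose products bind C/EBP motifs, had slopes of -0.08 and -0.10 (adjusted p 0.888 and 0.869). Both were highest in Het 3, at 194 and 12.5 CPM, a liver in which Saa1 was below its median.

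Among 9 feedback regulators 6 had a positive slope on Saa1 and 0 were called. Socs3, the inhibitor that STAT3 induces, was at 26.7 CPM in WT 5, 21.9 in Het 1 and 17.6 in Het 2, and between 3.02 and 10.1 in the other livers, with a slope of 0.34 ± 0.0960 (adjusted p = 0.262). Bcl3, an NF-kB cofactor, was at 68.0 in WT 5 and 65.1 in Het 2 against a median of 28.4, with a slope of 0.25 ± 0.0489 (adjusted p = 0.0807). In Homo against WT the log2 difference was -0.65 for Bcl3, and -0.59 for Socs3. Both were uncalled.

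Of 10 cytokine genes, 5 had enough counts to be tested. Il6 had 0 to 4 counts per library, Tnf 0 to 15, Osm 0 to 1, Lif 0 to 4 and Il22 0 in all, so these did not enter the test. Il1b had 3 to 61 counts. Cxcl1, a neutrophil chemokine, was at 35.0 CPM in WT 5 and 31.0 in Het 2, with a median of 8.76 and a slope of 0.35 ± 0.117 (adjusted p = 0.370). In Homo against WT the log2 difference was -1.07 ± 0.624 for Cxcl1 and -0.16 ± 0.301 for Il1a, both at an edgeR adjusted p of 0.998. Il18, an inflammasome cytokine, was between 5.03 and 7.42 CPM over all livers. Its Het livers (6.65 to 7.42) all lay above its WT livers (5.27 to 6.15), beside 1.20% of all genes whose Het and WT groups did not overlap. The log2 difference of Het against WT was 0.32 ± 0.105 (SE), uncalled at an edgeR adjusted p of 0.955.

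Outside the set, the genes of at least 1 CPM whose log2 level was most like that of Saa1 over the 14 livers were Lrg1 (r = 0.936), Qsox1 (0.864), Tgm2 (0.853), Clu (0.846) and Vps13c (0.840). For Hp they were Lrg1 (0.932), Clu (0.905), Fgl1 (0.893), Cp (0.891) and Tmem176a (0.882). Lrg1 and Clu were on both lists. These were picked as the highest r over all genes and carry no test. Lrg1 with Saa1 had a rho of 0.890 and an r of 0.905 without WT 4 and Het 2, and Clu with Hp a rho of 0.895 and an r of 0.767 without Het 2 and Homo 3. Fgl1, a liver-secreted fibrinogen-like protein, ran from 131 CPM in WT 4 to 626 in Het 2.

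Neutrophils also make lipocalin 2 and haptoglobin, so their markers are given beside the members. The summed level of 12 neutrophil markers was 1.53 to 7.56 CPM in WT, 2.47 to 9.10 in Het and 1.85 to 3.84 in Homo. It was highest in Het 2 (9.10) and WT 5 (7.56), and 1.85 in Homo 3. Of the 12 genes, 7 had under 10 counts in every library, among them Ly6g, Mpo and Elane, and 0 were at 0 in all libraries. S100a8 was at 2.37 CPM in Het 2 and 1.44 in WT 5, beside 143 and 75.6 for Lcn2, and the part of these cells in the result was not tested.

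The 10 Kupffer cell markers summed to 218 to 261 CPM in WT, 213 to 261 in Het and 255 to 275 in Homo, with 231 in Het 2, 220 in WT 5 and 255 in Homo 3. The 8 monocyte and recruited macrophage markers summed to 38.1 to 53.6 in WT, 43.9 to 60.8 in Het and 36.7 to 89.0 in Homo. The highest monocyte sum, 89.0, was in Homo 2, which also had the highest cholangiocyte sum, 66.7 against 20.5 to 36.2 in all others. Spp1 is on both lists and was at 57.6 CPM in Homo 2. Without Spp1 the Homo 2 sums were 31.3 and 9.07, below the highest sums of 32.2 in Het 1 and 13.5 in WT 1. Of the 7 adipose markers 5 had under 10 counts in every library. The 6 erythroid markers summed to 63.0 to 97.3 CPM in WT, 74.0 to 91.7 in Het and 59.8 to 74.1 in Homo, with the highest sum in WT 5. Most of this sum was Alas2, at a mean of 62.0 CPM, while the globin genes had means from 0.242 (Hba-a1) to 5.56 (Hbb-bt).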

How the data were processed

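RNA of 14 whole livers was sequenced after Trizol and column extraction with a NuGen Ovation mouse kit, per the labels' protocols. The deposited values are estimated counts per Ensembl gene, made with STAR and Salmon on GRCm39, per the submitters' processing notes. Their versions, the annotation and the use of strand were not stated. Between 6.36% and 8.59% of the values of a library were not whole (tolerance 0.01), and all were rounded. Genes were kept with filterByExpr (count minimum 10, total 15), scaled by TMM and tested in 1 edgeR 4.0.16 quasi-likelihood fit over all libraries in R 4.3.3, two-sided, with Benjamini-Hochberg adjustment and a call at an adjusted p under 0.05. CPM values use TMM-scaled totals, and log2 CPM a prior count of 2. Fold intervals are at 95%. Correlations used scipy 1.17.1 with 100000 resamples. DESeq2 1.42.0 and the other alternatives of the closing section were computed from the same counts, and the fit was tested on simulated data. The package limma 3.58.1 was loaded with edgeR and gave no separate fit.

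The members and gene lists were chosen with earlier results of these data known. Named genes were the members, Pkd1, 6 signalling genes (Stat3, Socs3, Cebpb, Cebpd, Il6ra, Il6st), per list the 3 genes of at least 1 CPM that ranked first by p in Homo against WT, any called, and the 5 most like Saa1 and Hp; others were named after their values were seen. The labels number 1 mouse per library, and p-values measure the spread between these libraries.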

Additional observations from a re-analysis of the deposited data

Results flagged for a closer look

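In 12 of 30 member and genotype sets, 1 liver lay far above the others of its group by Dixon's ratio on the CPM scale. Chance passes that test in about 1 in 20 groups of normally distributed values. CPM this uneven (Saa1 in WT, mean 319, SD 365) need not be normal, so the 12 cannot be set against that rate. In the WT group the liver was WT 5 each time: Saa1 was at 1027 CPM, Saa2 at 1083, Saa3 at 60.8, Orm2 at 45.7, Lcn2 at 75.6 and Hp at 2578. In the Het group it was Het 2 each time: Saa1 was at 2167 CPM, Saa2 at 2633, Saa3 at 37.0, Orm1 at 1200, Orm2 at 116 and Lcn2 at 143. No Homo liver stood apart by this ratio. The sets share their livers, so the 12 are not independent. On the log2 scale 2 of the 30 sets remained, Saa3 in WT 5 and in Het 2, where the next livers were at 5.02 and 4.87 CPM. As the sets are not independent, these 2 cannot be set against 1 in 20 either.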

How the results depend on the processing

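Over 22 alternative settings that gave 615 values for the 10 members in 3 comparisons, 0 were called and 33 had another sign, 2 of them values of an orosomucoid sum set against Orm2 and Orm3; the lowest adjusted p was 0.180, for Saa4 in Het against WT with the replicate block, and DESeq2 gave no adjusted p for Saa3. DESeq2 called 63 genes in Homo against WT, 35 in Het against WT and 19 in Homo against Het, where edgeR called 36, 9 and 5. With no filter on low counts 23 were called in Het against WT, and with only the 2 groups in the fit 2 in Homo against Het. Same-numbered libraries shared only a number: over 12 such pairs the r of their deviations was -0.092 to 0.149, above 0.1 in 2. With the replicate block, 19 genes were called in Homo against WT and 2 in Homo against Het, and the log2 difference turned to 0.00539 for Saa4, Homo against WT, and in the same comparison to 0.61 for Saa3, 0.46 for Orm2 and 0.85 for Lcn2, and in Het against WT to 1.34 for Saa3; with the block no member was called. Scaling by the library total gave 0.0346 for Orm2, Homo against WT, and the sum of the orosomucoid counts, which is mostly Orm1, gave 0.0680, a value of the sum and not of Orm2 or Orm3 alone. Without Het 2 and WT 4, the slope count was 5 and the Orm3 slope -0.15. Within WT 23 pairs passed, and on the log2 scale 2 sets stood apart. With the block, WT 5 and WT 6, whose numbers no Het or Homo library has, did not inform the genotype differences. Without WT 5 alone and with no block, Homo against WT was 0.617 for Saa3, 0.66 for Orm2 and 0.82 for Lcn2, but -0.151 for Saa4. The cause of these changes was not tested.

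Leaving out 1 library in turn gave 23 to 40 genes in Homo against WT and 10 to 26 that followed Saa1. The log2 difference of Homo against WT ran from -0.53 to 1.26 for Saa1, -0.61 to 1.56 for Saa2, -1.998 to 0.617 for Saa3, -0.0657 to 0.161 for Orm1, -0.48 to 0.66 for Orm2, -0.78 to 0.82 for Lcn2 and -0.0792 to 0.280 for Hp. That of Het against WT ran from -0.22 to 2.07 for Saa1, -0.38 to 2.51 for Saa2, -1.73 to 1.63 for Saa3, -0.33 to 1.95 for Orm2 and -0.15 to 2.35 for Lcn2. That of Homo against Het ran from -1.76 to 0.64 for Saa1, -2.08 to 0.89 for Saa2, -1.86 to 0.58 for Saa3, -0.398 to 0.0146 for Orm1, -1.75 to 0.31 for Orm2, -0.589 to 0.0806 for Hp and -0.431 to 0.0644 for Hpx. The Orm3 slope ran from -0.0280 to 0.108. The 95% interval of Saa1 in Homo over WT, 0.312 to 5.72, shows what differences these livers could not resolve, and Orm3 rests on 6 to 61 counts.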

Other observations

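The 3 livers with high Saa1 differed in other inflammation genes, which were picked after their values were seen and carry no test here. Mt2, a metallothionein that binds zinc, was at 166 CPM in Het 2 and 87.8 in WT 5 but at 1.10 in Homo 3, and Mt1 was at 298, 134 and 7.97. Steap4, a metalloreductase, was at 409 CPM in Het 2 and 503 in WT 5 but at 146 in Homo 3, beside a median of 144 over all livers. Nfkb2 was at 14.2, 15.4 and 3.67, and Lbp, the lipopolysaccharide binding protein, at 141, 119 and 55.3. Saa1 was at 1044 CPM in Homo 3 and 1027 in WT 5, so livers with nearly equal Saa1 differed in these genes.

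In Homo 2, Saa1 was at 556 CPM, the 4th highest level, while Saa3 was at 3.11 and Saa4 at 594. The fibrinogen chain gene Fga was at 5186 CPM there, its highest level, against 5014 in Het 2 and 4694 in WT 5.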
